A study of Mus musculus with 6 samples.

Results

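The aquaporins are membrane channels that assemble as tetramers and let water cross the cell membrane along osmotic gradients. The aquaglyceroporins among them, which include Aqp3, Aqp7 and Aqp9, also pass glycerol. In skin, Aqp3 of the living epidermis is the best known member, and mice that lack it have dry skin with a low glycerol content. The set described here holds 6 aquaporin genes, Aqp1, Aqp3, Aqp4, Aqp5, Aqp7 and Aqp9, taken by symbol from the 19309 genes of the deposited table. All 6 were found and all 6 passed the filter on low counts. The other 6 aquaporin genes in the table, Mip, Aqp2, Aqp6, Aqp8, Aqp11 and Aqp12, are given beside them.

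Libraries were made from the cheeks of 3 C57BL/6 mice (6 to 8 weeks old), with no transgene or other allele named in the labels. Each morning and afternoon for 12 days the right cheek was wiped for 30 s with equal volumes of acetone and ether and then for 30 s with water (AEW, 3 libraries), which gives a dry skin model. The left cheek of the same mouse was wiped for 60 s with distilled water (vehicle, 3 libraries), and both cheeks were taken on day 12. Side of the face and treatment coincided in every mouse, and the replicate number is the mouse number. The series title names MMP9, but the labels give no change of that gene, and the comparison is of AEW with vehicle skin.

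Library totals ran from 19120764 to 19506491 estimated counts in AEW skin and from 18449207 to 18522830 in vehicle skin, so that 1 CPM (counts scaled to library size with TMM factors) stood for 18 to 20.1 counts. Defining markers of epidermis were abundant in every library. The summed level of 8 basal keratinocyte markers was 11932 to 13558 CPM in AEW skin and 7591 to 11965 CPM in vehicle skin. The tissue also held muscle, fat and vessels, whose marker levels are given beside the aquaporin each of them bears on. Mouse 1 stood apart from the other mice in immune markers: the median log2 difference of 8 macrophage markers between AEW and vehicle skin was -0.998 within mouse 1, 1.24 within mouse 2 and 1.18 within mouse 3.

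In AEW skin Aqp3 and Aqp5 rose, Aqp4 fell, and Aqp1, Aqp7 and Aqp9 did not pass the test. The quasi-likelihood test of edgeR, with Benjamini-Hochberg adjustment across the 15109 tested genes and a threshold of 0.05, called 2 of the 6 members higher and 1 lower. Of all tested genes 4.85% were called higher and 6.8% lower. Without adjustment 4654 of the 15109 had an edgeR p under 0.05, in either direction. The DESeq2 Wald test called 1362 of the 15109 higher and 1511 lower. The median log2 fold change was 0.27 over the 6 members and 0.01 over all tested genes. With the mouse as a block 1 member was higher and 1 lower, where 1.99% and 3.89% of all tested genes were called. In 3 members (Aqp3, Aqp5 and Aqp9) all AEW libraries lay above all vehicle libraries, as they did in 17.4% of tested genes, and in Aqp4 all lay below, as in 19.5%.

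**Figure D1:**
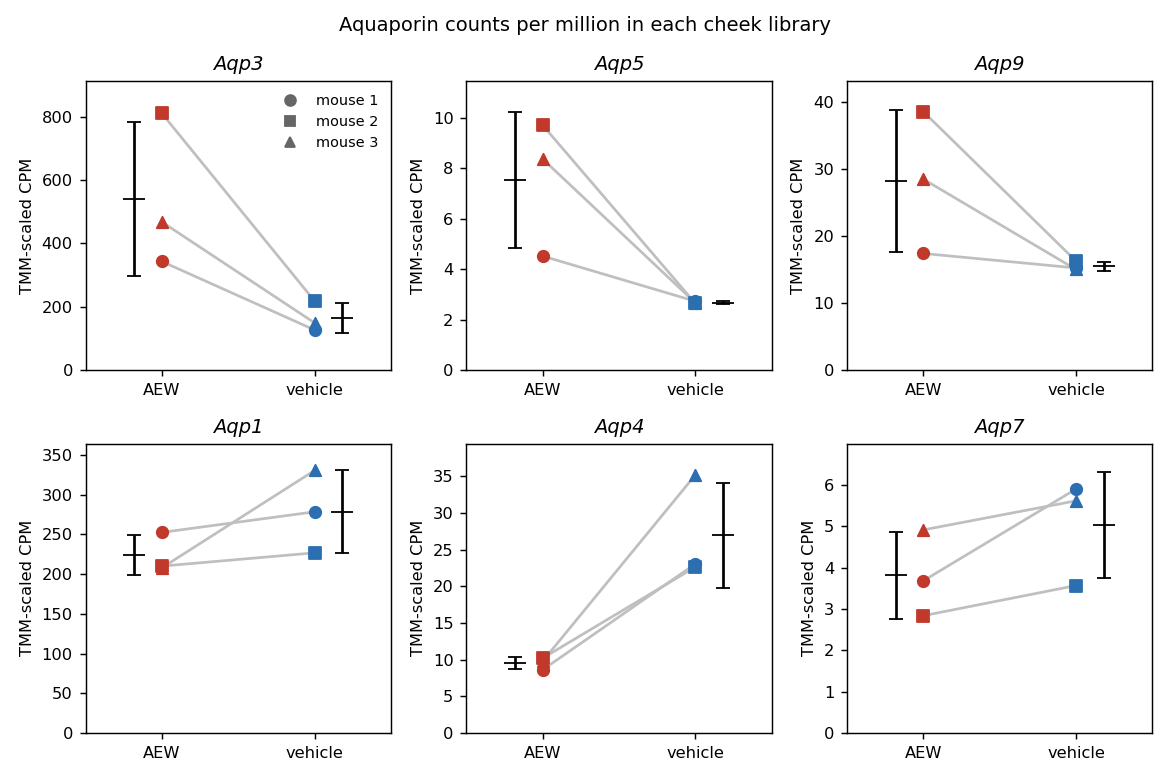
TMM-scaled CPM of each aquaporin in AEW (left, red) and vehicle (right, blue) libraries, with grey lines joining the cheeks of 1 mouse and black marks for the mean and SD of 3 libraries. The groups do not overlap for Aqp3, Aqp5, Aqp9 and Aqp4, and they overlap for Aqp1 and Aqp7.

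Aqp3 (gene 11828), the aquaglyceroporin of basal and lower suprabasal keratinocytes, had 343, 810 and 468 CPM in AEW skin of mice 1, 2 and 3, against 127, 218 and 149 CPM in vehicle skin of the same mice. Every AEW library was above every vehicle library, and mouse 2 was the highest of its group on both sides. Aqp3 averaged 540 ± 242 CPM in AEW skin and 165 ± 47.4 CPM in vehicle skin (SD, n = 3 each). The log2 fold change was 1.71 ± 0.35 (SE, 95% interval 0.90 to 2.53, edgeR adjusted p = 0.0286), a 3.28-fold rise. The ratio of AEW to vehicle was 2.70 (2.58 to 2.83) for mouse 1, 3.72 (3.59 to 3.85) for mouse 2 and 3.14 (3.00 to 3.28) for mouse 3. These are exact binomial 95% intervals and cover counting error only. The 3 ratios lay closer together than the levels did, and with the mouse as a block the standard error was 0.12 (log2 fold change 1.66, adjusted p = 0.0146). The call was lost without AEW replicate 2 (1.30, adjusted p = 0.0519), AEW replicate 3 (1.81, adjusted p = 0.0517), vehicle replicate 1 (1.56, adjusted p = 0.104) or vehicle replicate 3 (1.65, adjusted p = 0.129).

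Keratinocyte markers mark the cells that carry Aqp3. Of 8 basal markers 1 was higher and 0 lower with edgeR, with a median log2 fold change of 0.28. The edgeR count of higher markers was 0 when AEW replicate 2 or 3 or vehicle replicate 1 or 3 was left out. At an unadjusted p under 0.05 there were 2 higher and 2 lower, and DESeq2 called 1 higher and 2 lower. Over all 15109 tested genes 4654 were under 0.05 unadjusted, in either direction. DESeq2 called 1362 of them higher and 1511 lower. Dst was at -0.51 on the log2 scale and did not pass (edgeR adjusted p = 0.0868). Krt14, a keratin of the basal layer, rose by 0.97 ± 0.21 on the log2 scale (SE, edgeR adjusted p = 0.0319). Krt15, another basal keratin, was at -0.76 on the log2 scale and missed the threshold (adjusted p = 0.0506). Relative to 1000 CPM of the summed basal markers, Aqp3 stood at 28.7, 59.8 and 37.3 CPM in AEW skin of mice 1 to 3, against 16.7, 18.2 and 14.9 CPM in vehicle skin. The groups stayed apart on this scale, in which Krt5 and Krt14 were the largest parts of the sum in every library. Against the 8 suprabasal markers on the same scale Aqp3 ran from 23.9 to 35.5 CPM in AEW skin and from 12.0 to 15.7 CPM in vehicle skin, also without overlap. In bulk tissue fewer or more cells of a type and less or more RNA per cell cannot be told apart.

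Aqp5 (gene 11830), a water channel of secretory glands whose human form is mutated in a palmoplantar keratoderma, was a low-level transcript. Its rounded counts were 91, 185 and 162 in AEW skin of mice 1, 2 and 3, against 50, 49 and 48 in vehicle skin. As CPM these were 4.52, 9.71 and 8.37 in AEW skin and 2.73, 2.65 and 2.67 in vehicle skin. The vehicle libraries were almost level, while AEW replicate 1 was the lowest of its group and still above all 3 of them. The log2 fold change was 1.49 ± 0.30 (SE, 95% interval 0.78 to 2.19, edgeR adjusted p = 0.0281), a 2.80-fold rise. With the mouse as a block it was 1.42 with an adjusted p of 0.0662, which no longer passed. The ratio of AEW to vehicle was 1.66 (1.16 to 2.39) for mouse 1, 3.67 (2.67 to 5.14) for mouse 2 and 3.14 (2.26 to 4.43) for mouse 3, with exact binomial 95% intervals. Leaving out each library in turn, the call held once in 6 fits, without AEW replicate 1 (1.74, adjusted p = 0.00379). The other 5 gave adjusted p from 0.0664 to 0.124.

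Salivary and lacrimal glands make Aqp5 and lie near cheek skin. Of 12 such markers 8 were in the table, 3 were tested, 1 was higher and 1 lower. Both calls were lost when vehicle replicate 1 or 3 was left out (0 and 0), the lower one also when AEW replicate 2 was, and 2 were higher when AEW replicate 1 was. Dcpp1 was at 0 in every library, and Smr2, Smr3a and Bpifa2 did not exceed 0.158 CPM in any of the 6 libraries. Scgb2b24, a secretoglobin, was at 0, 3.62 and 3.93 CPM in AEW skin of mice 1 to 3, against 0.765, 0 and 0.278 CPM in vehicle skin. Amy1, an amylase of salivary gland that other tissues also make, stood at 13.7 to 16.7 CPM in AEW skin, against 24 to 43.4 CPM in vehicle skin, and fell (log2 fold change -1.28, adjusted p = 0.0206). Lpo, a lactoperoxidase of glands and other secretory epithelia, rose, with 8.15 to 32.4 CPM in AEW skin and 0.382 to 0.864 CPM in vehicle skin. The part of gland tissue in the Aqp5 result was not tested. Scaled to 1000 CPM of the suprabasal markers, Aqp5 stood at 0.359 to 0.428 CPM in AEW skin and 0.191 to 0.257 CPM in vehicle skin, without overlap. Scaled to the basal markers it ran from 0.379 to 0.716 CPM in AEW skin and from 0.221 to 0.360 CPM in vehicle skin, again without overlap.

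Aqp9 (gene 64008), an aquaglyceroporin of liver, of leukocytes and, in human skin, of differentiated keratinocytes, had 17.4, 38.5 and 28.5 CPM in AEW skin of mice 1, 2 and 3. It had 15.2, 16.3 and 15.0 CPM in vehicle skin. The groups did not overlap, but AEW replicate 1 lay just above the highest vehicle library. The log2 fold change was 0.86 ± 0.26 (SE, 95% interval 0.24 to 1.48), and the edgeR adjusted p of 0.0778 did not pass. The DESeq2 Wald test gave 0.87 with an adjusted p of 0.0144. Within mice the AEW level divided by the vehicle level was 1.14 (95% interval 0.973 to 1.34) for mouse 1, 2.37 (2.07 to 2.72) for mouse 2 and 1.90 (1.64 to 2.20) for mouse 3. Leaving out AEW replicate 1 gave 1.10 on the log2 scale (edgeR adjusted p = 0.00748).

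Among cells that can carry Aqp9, neutrophils had 3 markers higher of 4 tested, from a list of 8. The summed level of the 8 was 16.7, 81.2 and 52.6 CPM in AEW skin of mice 1, 2 and 3, against 12.9, 13.2 and 8.51 CPM in vehicle skin. S100a9, an alarm protein that stressed keratinocytes also make, and the chemokine receptor Cxcr2 rose by 3.59 and 1.81 on the log2 scale (adjusted p = 0.0352 and 0.0377), and S100a9 had 0.0709 with the block. No neutrophil marker was called in the fits without AEW replicate 2 or 3 or without any of the 3 vehicle replicates (0 in each). The 4 untested markers reached at most 0.672 CPM and did not move together. Ly6g, which defines mouse neutrophils, was at 0.207 to 0.525 CPM in AEW skin and 0 to 0.109 CPM in vehicle skin, while Elane, neutrophil elastase, was at 0.0517 to 0.0994 CPM in AEW skin and 0.270 to 0.382 CPM in vehicle skin. The lower values of each lie under the level of 3 counts (0.149 to 0.167 CPM), so both directions are uncertain. The 8 macrophage markers had 0 calls with edgeR, 0 at an unadjusted p under 0.05 and 0 with DESeq2, with Cd68 and Fcgr1 at log2 fold changes of 0.72 and 1.06. With both libraries of mouse 1 left out and the block kept, all 8 were called higher, in the fit that also called Aqp9. That fit called 1922 of its 15163 tested genes higher and 1588 lower. AEW replicate 1 was the lowest AEW library for Aqp9, Aqp3 and Aqp5 and for the summed neutrophil, macrophage and suprabasal markers alike. Of the 8 suprabasal markers 2 were higher, Krt1, a keratin of differentiating cells, at a log2 fold change of 1.89 and Ivl, the involucrin gene, at 1.10, with adjusted p of 0.0171 and 0.0341. The block took Ivl to an adjusted p of 0.0525, and without vehicle replicate 1 or 3 the list had 0 calls. Scaled to 1000 CPM of the suprabasal markers, Aqp9 stood at 1.38, 1.69 and 1.45 CPM in AEW skin of mice 1 to 3. It stood at 1.44, 1.17 and 1.24 CPM in vehicle skin, and the groups overlapped. Krt1 alone had 3673 to 7503 of 12591 to 22800 CPM of that sum in AEW skin. In vehicle skin it had 1094 to 1942 of 10616 to 13890 CPM. With Krt1 left out of the sum the groups would not overlap. Krt10 and Dsc1 did not pass, at log2 fold changes of 0.55 and 0.74. Krtdap, Lor, Sbsn and Dsg1a did not pass either, at 0.16, -0.32, 0.04 and -0.07. Scaled to the neutrophil markers Aqp9 ran from 474 to 1045 CPM in AEW skin and from 1177 to 1765 CPM in vehicle skin. On this scale all AEW libraries lay below all vehicle libraries, opposite to the direction of Aqp9 itself. S100a8, the other called marker, and S100a9 had 15.1 and 30.0 of the 81.2 CPM in AEW replicate 2. They had 1.51 and 1.84 of the 13.2 CPM in vehicle replicate 2. The part of leukocytes in the Aqp9 values was not tested.

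**Figure D2:**
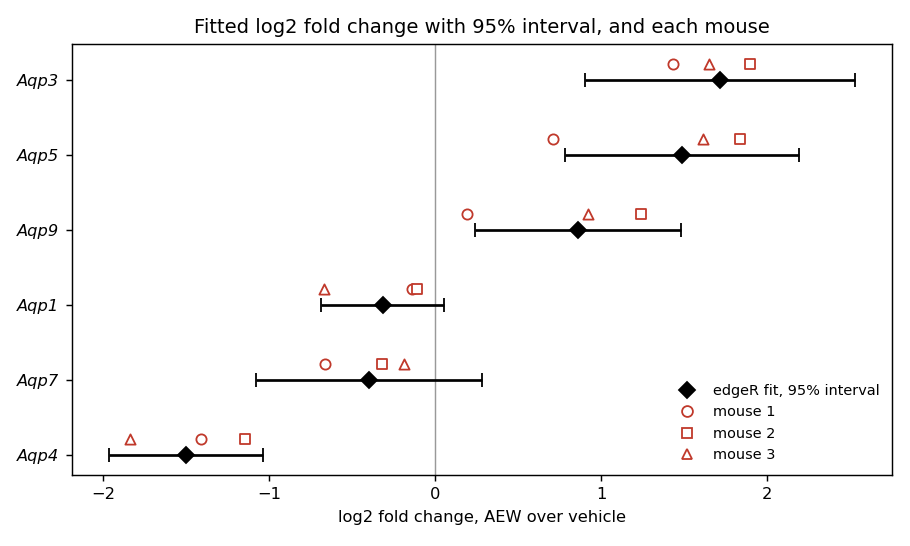
Log2 fold change of AEW over vehicle for each aquaporin, with black diamonds and bars for the edgeR estimate and its 95% interval and open symbols for the difference within each mouse. Aqp3 and Aqp5 lie to the right with intervals from 0.90 and 0.78 upward, Aqp4 lies to the left, and the intervals of Aqp1 and Aqp7 include 0.

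The promoters of the members whose AEW libraries all lay above the vehicle libraries show the sequence in front of genes that differ in the same direction. The 250 bases before the annotated start come from RefSeq (GRCm38.p6, while the submitters' processing notes name GRCm39), read 5′ to 3′ on the gene's strand. Capitals mark matches on either strand to TATAAA (the TATA box), GGGCGG (the GC box), TGANTCA (AP-1), TTGCNNCAA (C/EBP), TGACNNNGC (the Nrf2 element), AACCGGTT (Grainyhead) and CACGTG (the E-box). No matches overlap in the sequences shown.
Aqp3, chr4:41098184-41098433, minus strand: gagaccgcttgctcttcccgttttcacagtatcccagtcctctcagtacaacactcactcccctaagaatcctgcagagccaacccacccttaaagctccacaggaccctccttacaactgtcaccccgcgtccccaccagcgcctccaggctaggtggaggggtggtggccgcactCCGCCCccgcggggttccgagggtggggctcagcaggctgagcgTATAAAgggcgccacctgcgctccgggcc
Aqp5, chr15:99590778-99591027, plus strand: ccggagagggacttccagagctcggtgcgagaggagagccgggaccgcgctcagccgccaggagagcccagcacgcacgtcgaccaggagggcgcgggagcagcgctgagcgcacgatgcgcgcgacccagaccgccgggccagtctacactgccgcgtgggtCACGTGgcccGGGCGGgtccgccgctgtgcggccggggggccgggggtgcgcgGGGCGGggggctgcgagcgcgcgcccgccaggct
Aqp9, its second start, chr9:71162634-71162883, minus strand: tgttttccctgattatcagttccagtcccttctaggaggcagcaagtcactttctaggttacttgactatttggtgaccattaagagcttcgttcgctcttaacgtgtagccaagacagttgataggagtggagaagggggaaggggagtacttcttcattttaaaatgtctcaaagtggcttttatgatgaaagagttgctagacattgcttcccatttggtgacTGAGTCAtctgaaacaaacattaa

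The windows differed from one another in composition and in the motifs they held. Aqp3 had a TATA box 29 bases before its start, as 12.4% of 32851 promoters of this length had somewhere, and a GC box, as 32.7% had. Aqp5 had no TATA box, an E-box (6.02% of promoters) and more than 1 GC box, in a window of 78.4% G and C, against 64% for Aqp3. The second Aqp9 start had an AP-1 match 24 bases before it, as 6.75% of promoters had, in a window of 41.6% G and C. The first Aqp9 start and both starts of Aqp7 held none of the 7 motifs. The window of Aqp1, which did not pass the test, held a GC box 190 bases before its start. This start alone was not matched in the GENCODE transcripts of its gene, so its position is uncertain. A match describes letters in this window only. A window before the start was found for 5 of the 6 members, all but Aqp4.

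Aqp4 (gene 11829), the water channel of astrocytes and of the membrane of fast skeletal muscle fibres, fell. It had 8.60, 10.2 and 9.77 CPM in AEW skin of mice 1, 2 and 3, against 23.1, 22.6 and 35.2 CPM in vehicle skin. All AEW libraries lay below all vehicle libraries, and the AEW libraries varied less than the vehicle libraries did (9.52 ± 0.82 CPM in AEW skin and 27.0 ± 7.13 CPM in vehicle skin, SD, n = 3 each). The log2 fold change was -1.50 ± 0.20 (SE, 95% interval -1.96 to -1.04, edgeR adjusted p = 0.0109), and with the mouse as a block the adjusted p was 0.022. The ratio of AEW to vehicle was 0.373 (0.311 to 0.446) for mouse 1, 0.450 (0.378 to 0.535) for mouse 2 and 0.278 (0.235 to 0.327) for mouse 3, with exact binomial 95% intervals. Leaving out any 1 of the 6 libraries kept the call, with log2 fold changes from -1.61 to -1.26.

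Skeletal muscle markers moved with Aqp4. Of 10 such markers 9 fell and 0 rose, with a median log2 fold change of -1.35, and 8 fell with the mouse as a block. Leaving out vehicle replicate 3 gave a count of 2, leaving out AEW replicate 2 gave 3 and leaving out vehicle replicate 1 gave 4. Mylpf, a light chain of fast myosin, was at -1.63 ± 0.14 on the log2 scale (SE, edgeR adjusted p = 0.00478), and Tnni2, fast troponin I, was at -1.36 ± 0.16 (adjusted p = 0.00902). The summed level of the 10 markers was 10683 to 14783 CPM in AEW skin and 25794 to 37395 CPM in vehicle skin. Scaled to 1000 CPM of these markers, Aqp4 stood at 0.805, 0.905 and 0.661 CPM in AEW skin of mice 1, 2 and 3, against 0.774, 0.877 and 0.941 CPM in vehicle skin. On this scale the groups overlapped, and Aqp4 was slightly higher in AEW than in vehicle skin of mice 1 and 2 and lower in mouse 3.

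The dystrophin complex anchors Aqp4 at the muscle fibre membrane through syntrophin. Of 10 tested members 7 fell and 0 rose, with and without the mouse as a block, and the median log2 fold change was -0.85. Dmd, Sntb1 and Dag1 did not pass, at log2 fold changes of -0.43, -0.43 and -0.09 (adjusted p = 0.275, 0.07 and 0.547). Without vehicle replicate 1 or 3 the count was 2 each. Sgcd, which encodes a sarcoglycan, had a log2 fold change of -0.94 ± 0.12, and Dtna, the dystrobrevin alpha gene, one of -1.16 ± 0.16 (SE, adjusted p = 0.0109 and 0.0119). On the scale of 1000 CPM of the complex, Aqp4 stood at 16.2 to 20.1 CPM in AEW skin and 31 to 39.9 CPM in vehicle skin, without overlap. Dag1, which hardly moved, was the largest part of that sum. It had 228 to 250 of 506 to 569 CPM in AEW skin and 237 to 265 of 711 to 881 CPM in vehicle skin. Glia of skin nerves were the other cells checked: of 8 Schwann cell markers 0 were called with edgeR, 4 were lower at an unadjusted p under 0.05, and 0 were called with DESeq2. Over all 15109 tested genes 4654 were under that unadjusted threshold, in either direction. Without AEW replicate 3 edgeR called 2 of the 8 lower, in a fit that called 654 of its 15269 tested genes lower. The median log2 difference of the list was -0.72, -0.91 and -0.01 within mice 1, 2 and 3. Cnp, of myelin, had a log2 fold change of -0.40. The summed level of the 8 markers was 433 to 746 CPM in AEW skin and 718 to 756 CPM in vehicle skin, and scaled to 1000 CPM of them Aqp4 stood at 13.1 to 23.5 CPM in AEW skin and 30.5 to 47.7 CPM in vehicle skin, without overlap.

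Aqp1 (gene 11826), the water channel of red blood cells and of the endothelium of small vessels, had 253, 210 and 208 CPM in AEW skin of mice 1, 2 and 3, against 278, 227 and 331 CPM in vehicle skin. The groups overlapped, although the AEW cheek was the lower one in each of the 3 mice. The log2 fold change was -0.32 ± 0.16 (SE, 95% interval -0.69 to 0.05, edgeR adjusted p = 0.222). Within mice the AEW level divided by the vehicle level was 0.907 (95% interval 0.872 to 0.943) for mouse 1, 0.926 (0.887 to 0.967) for mouse 2 and 0.629 (0.604 to 0.655) for mouse 3. These exact binomial intervals cover counting error only, and libraries of a group differed by more than that.

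Of 10 endothelial markers 3 fell and 0 rose, with a median log2 fold change of -0.54, and 1 fell with the mouse as a block. At an unadjusted p under 0.05 there were 9 lower, and DESeq2 called 9 lower. Of all 15109 tested genes 4654 were under 0.05 unadjusted, in either direction, and DESeq2 called 1511 lower. Leaving out AEW replicate 2 or vehicle replicate 1 or 3 gave 0 calls each, leaving out AEW replicate 3 gave 1, and leaving out vehicle replicate 2 gave 7. Emcn, endomucin of capillaries and veins, and Cldn5, the endothelial claudin, had log2 fold changes of -0.60 ± 0.10 and -0.76 ± 0.13 (SE, adjusted p = 0.0173 and 0.0198), and the block took Cldn5 to 0.0511. The summed level of the 10 markers was 337 to 401 CPM in AEW skin and 441 to 607 CPM in vehicle skin. At 1000 CPM of these markers Aqp1 stood at 749, 525 and 534 CPM in AEW skin of mice 1 to 3, against 523, 514 and 545 CPM in vehicle skin. AEW replicate 1 was high on this scale, and the other 5 libraries lay between 514 and 545. Of 5 tested red blood cell markers 0 were called with edgeR, 2 were lower at an unadjusted p under 0.05, and 2 were lower with DESeq2. The globin genes Hba-a1 and Hbb-bs had log2 fold changes of -0.83 and -0.75, and both have near-identical copies that share reads, so their values are uncertain.

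Aqp7 (gene 11832), the aquaglyceroporin through which fat cells release glycerol, had 3.68, 2.84 and 4.91 CPM in AEW skin of mice 1, 2 and 3, against 5.90, 3.57 and 5.62 CPM in vehicle skin. The groups overlapped, and the AEW cheek was the lower one in all 3 mice. The log2 fold change was -0.40 ± 0.29 (SE, 95% interval -1.08 to 0.28, edgeR adjusted p = 0.392). The counts were 54 to 95 in AEW skin and 66 to 108 in vehicle skin. Mice 1, 2 and 3 had AEW to vehicle ratios of 0.624, 0.795 and 0.875.

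Of 9 adipocyte markers 2 fell and 0 rose, with a median log2 fold change of -0.78, and 0 were called with the mouse as a block. Without it 7 of the 9 were lower at an unadjusted p under 0.05, and DESeq2 called 6. Among all 15109 tested genes 4654 were under 0.05 unadjusted, in either direction, and DESeq2 called 1511 lower. Leaving out vehicle replicate 2 gave 6 calls, leaving out AEW replicate 1 gave 1, and leaving out any of the other 4 libraries gave 0. Cfd (adipsin) and Adipoq (adiponectin) had log2 fold changes of -1.06 and -0.94 (adjusted p = 0.0304 and 0.0399). By mouse, this median was -0.99, 0.01 and -1.23 for mice 1, 2 and 3. The summed level was 1836 to 2402 CPM in AEW skin and 2696 to 4513 CPM in vehicle skin. Relative to 1000 CPM of these markers, Aqp7 stood at 2.00, 1.18 and 2.44 CPM in AEW skin of mice 1 to 3, against 1.37, 1.32 and 1.24 CPM in vehicle skin, and the groups overlapped through mouse 2.

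**Figure D3:**
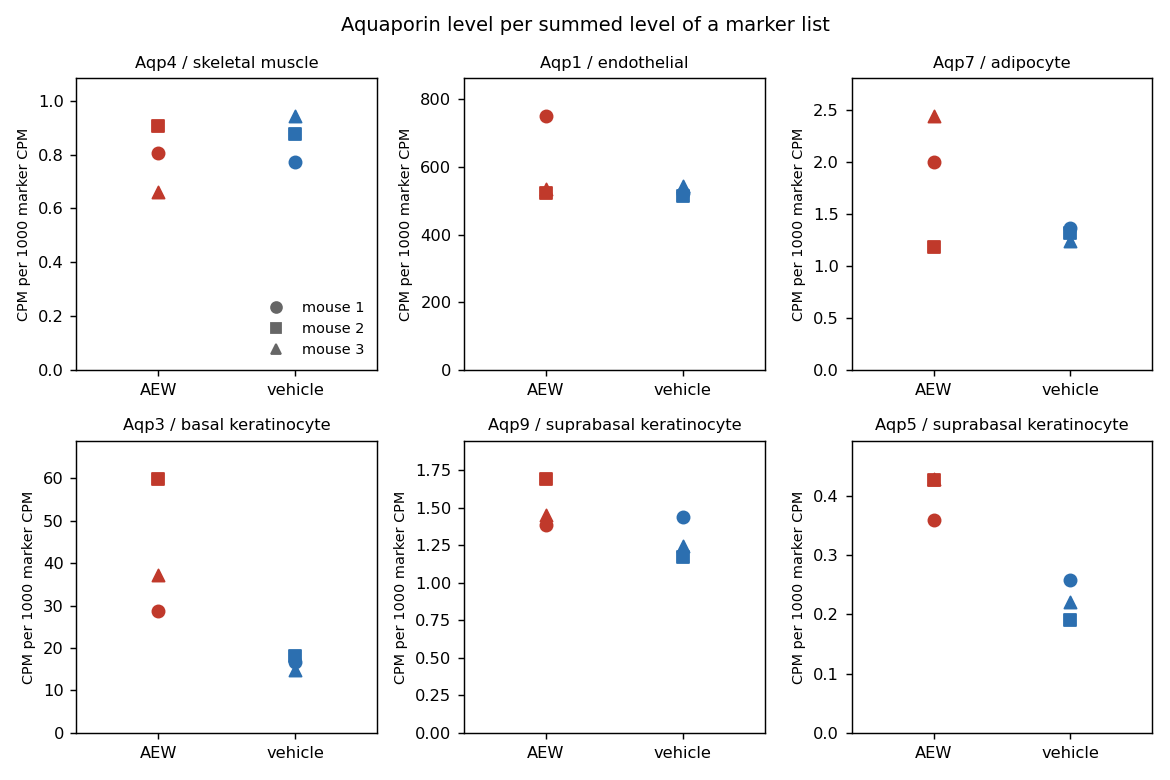
CPM of an aquaporin per 1000 CPM of the summed markers of a cell type, in AEW (left, red) and vehicle (right, blue) libraries, with 1 symbol per mouse. The AEW libraries all lie higher for Aqp3 on the basal marker scale (28.7 upward) and for Aqp5 on the suprabasal scale (0.359 upward). The groups overlap for Aqp4 by muscle, Aqp1 by endothelial, Aqp7 by adipocyte and Aqp9 by suprabasal markers. The overlap of Aqp9 depends on Krt1 being in the sum.

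Levels were compared between genes on the deposited TPM values, which are scaled for gene length. In AEW skin Aqp3 was first at 521 ± 206 TPM, then Aqp1 at 139 ± 20.1, Aqp9 at 18 ± 6.01 and Aqp5 at 8.34 ± 2.73 TPM (SD, n = 3). Aqp7 at 3.31 ± 1.38 and Aqp4 at 3.15 ± 0.19 TPM followed and did not differ beyond their spread. In vehicle skin Aqp1 at 165 ± 29.9 and Aqp3 at 155 ± 47.2 TPM overlapped, as did Aqp9 at 9.62 ± 0.55 and Aqp4 at 8.57 ± 2.30 TPM. Aqp7 at 4.55 ± 1.65 and Aqp5 at 2.87 ± 0.01 TPM came next and also overlapped. Aqp4 and Aqp5 thus stood in the opposite order in AEW and in vehicle skin.

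The sum of all 12 aquaporins was 532, 911 and 638 TPM in AEW skin of mice 1, 2 and 3, against 308, 369 and 368 TPM in vehicle skin. Aqp3 made up 65.1%, 82.1% and 73.4% of that sum in AEW skin and 38.1%, 56.4% and 38.0% in vehicle skin. Aqp1 made up 21.5 ± 8.44% in AEW skin and 47.8 ± 9.22% in vehicle skin (SD, n = 3 each). The ratio of Aqp3 to Aqp1 in TPM was 2.15, 6.10 and 3.56 in AEW skin and 0.721, 1.52 and 0.713 in vehicle skin of mice 1 to 3. Mouse 2 had the highest ratio on both cheeks, and no vehicle library reached the lowest AEW library.

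**Figure D4:**
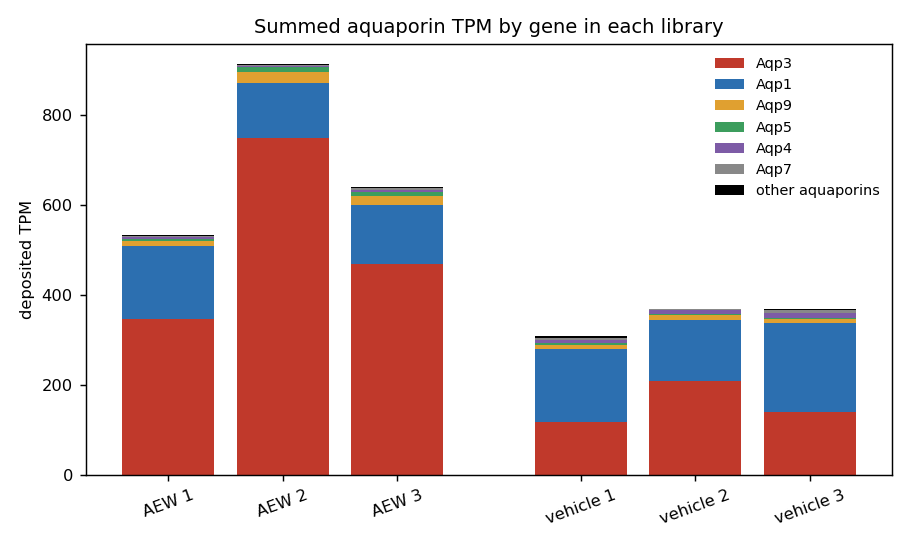
Deposited TPM of the aquaporins stacked by gene in each AEW library (left) and vehicle library (right). Aqp3 (red) and Aqp1 (blue) make up nearly all of each bar, and the AEW bars reach 532 to 911 TPM, against 308 to 369 TPM in vehicle skin.

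Of the 6 other aquaporin genes 5 had too few counts for a test. Aqp11, an intracellular member and the one of them that was tested, had 26, 10 and 17 counts in AEW skin of mice 1, 2 and 3, against 38, 10 and 39 in vehicle skin. Its log2 fold change was -0.82 ± 0.56 (SE, edgeR adjusted p = 0.369), within the spread between replicates. Summed over 3 libraries each, AEW and vehicle skin had 7 and 7 counts of Mip (the lens aquaporin), 6 and 5 of Aqp2 (of the kidney collecting duct) and 10 and 9 of Aqp6. Aqp8 had 0 counts in AEW skin and 1 in vehicle skin, and Aqp12 had 1 in AEW skin and 0 in vehicle skin. A count of 0 in a library allows up to 0.149 to 0.167 CPM (3 counts), which covers counting error only.

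The aquaglyceroporins share their substrate with the enzymes of glycerol metabolism. Of 17 such genes 16 were tested, 1 was higher and 2 lower, and 1 and 0 with the mouse as a block, with a median log2 fold change of -0.31. Gk, glycerol kinase, which phosphorylates glycerol, rose, with a log2 fold change of 0.85 ± 0.19 (SE, edgeR adjusted p = 0.0362, and 0.0259 with the block). Gpam, of the first step of glycerolipid synthesis, and Mogat1, a monoacylglycerol acyltransferase, fell by 0.36 and 1.38 on the log2 scale (adjusted p = 0.046 and 0.0499), and the block gave 0.0829 and 0.0967. Without AEW replicate 1 there were 4 higher and 1 lower, without vehicle replicate 2 there were 0 and 6, and without any of the other 4 libraries 0 and 0. At an unadjusted p under 0.05 there were 2 higher and 8 lower, and DESeq2 called 2 higher and 7 lower. Among all 15109 tested genes 4654 were under 0.05 unadjusted, in either direction. DESeq2 called 1362 of the 15109 higher and 1511 lower. None of the 4 lipases on the list passed: Pnpla2 and Lipe had log2 fold changes of -0.70 and -0.59 (adjusted p = 0.0704 and 0.159), and Lpl and Mgll -0.21 and 0.08 (adjusted p = 0.496 and 0.716).

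Of 13 tested genes for cell volume and osmolytes 0 were called with edgeR, 2 were higher and 1 lower at an unadjusted p under 0.05, and 1 was higher with DESeq2. Among all 15109 tested genes 4654 were under 0.05 unadjusted, in either direction, and DESeq2 called 1362 higher. The median log2 fold change of the list was -0.02. Trpv4, an osmosensitive cation channel, had a log2 fold change of 0.48 (adjusted p = 0.0766), and Akr1b3, the aldose reductase that makes sorbitol, one of -0.29 (adjusted p = 0.125). Among 8 sebaceous gland markers, which come from another glycerol-rich skin structure, 2 rose and 1 fell. Elovl3, a fatty acid elongase, had a log2 fold change of 1.13 and Mgst1, a glutathione transferase, one of -0.46 (adjusted p = 0.0221 and 0.0323). The block left 1 higher and 0 lower (Mgst1, adjusted p = 0.0669). Leaving out AEW replicate 1 gave 4 higher and 1 lower, leaving out vehicle replicate 2 gave 1 and 1, and leaving out any of the other 4 libraries gave 0 and 0.

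**Figure D5:**
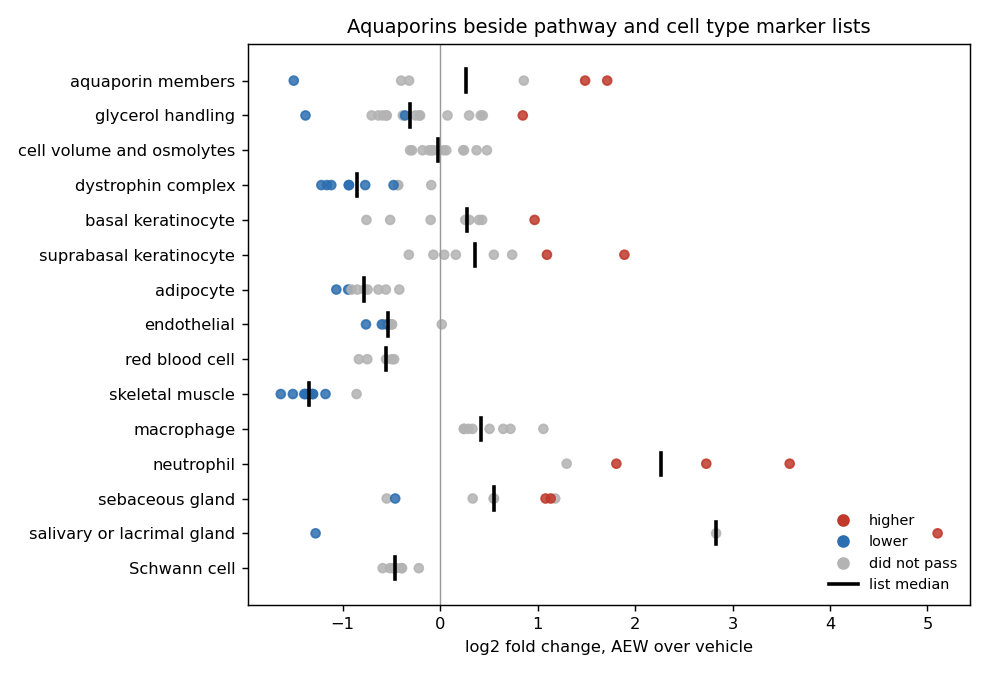
Log2 fold change of AEW over vehicle for each tested gene of the aquaporin set and of the pathway and marker lists, with red for higher, blue for lower, grey for genes that did not pass and a black bar for the list's median. The muscle median lies at -1.35 and the dystrophin median at -0.85, and the aquaporins span -1.50 to 1.71.

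Genes next to the aquaporins on the chromosome were looked up in the RefSeq gene order. Aqp3 and Aqp7 are nearest tested neighbours of each other, with log2 fold changes of 1.71 and -0.40. Nol6, of ribosome assembly, on the other side of Aqp3, had a log2 fold change of 0.31 ± 0.08 (SE, edgeR adjusted p = 0.0557). Racgap1, a regulator of cytokinesis and the nearest tested gene on 1 side of Aqp5, rose (1.23 ± 0.27, SE, adjusted p = 0.0338), and Faim2 on the other side had a log2 fold change of 0.79 (adjusted p = 0.382). Nfx1 beside Aqp7 had a log2 fold change of 0.14, Mindy4 and Adcyap1r1 beside Aqp1 had -0.28 and -0.97, Kctd1 and Cdh2 beside Aqp4 had 0.10 and -0.40, and Adam10 and Aldh1a2 beside Aqp9 had 0.13 and -0.41. None of these 7 passed the test (adjusted p from 0.123 to 0.493).

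For each member, the 3 genes with the most similar profile were taken from 13280 genes by Pearson's r of log2 CPM over the 6 libraries, which share 3 mice and the contrast of treatments. Aqp3 was most like Tuba1c, Clint1 and Gk (r = 0.998 each), and 284 genes exceeded 0.95. Tuba1c, an alpha tubulin, had a log2 fold change of 0.89 (adjusted p = 0.0254), and Clint1, a clathrin adaptor, one of 0.17 (adjusted p = 0.21). Aqp5 was most like Akirin1, Zfp180 and Sult2b1 (0.996, 0.996 and 0.995), of which Sult2b1, the cholesterol sulfotransferase, had a log2 fold change of 1.26 (adjusted p = 0.0194). Aqp9 was most like Ell2, Sptlc1 and Klk7 (0.993, 0.992 and 0.991), of which Klk7, a protease of the horny layer, had a log2 fold change of 1.30 (adjusted p = 0.0643). Aqp4 was most like Gucy1a1, Ppm1j and Clec14a (0.998 each), and 581 genes exceeded 0.95. For Aqp1 they were Fto, Nxpe3 and Mto1 (0.989, 0.986 and 0.985), and for Aqp7 Cdk5, Sirt4 and Gja4 (0.992, 0.99 and 0.989), with 24 and 18 genes above 0.95. With so few libraries a high r is common, and it is given as a description.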

How the data were processed

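Per the labels' protocols, 6 libraries of cheek skin (3 AEW, 3 vehicle, both from each mouse) came from mRNA bound to oligo(dT) beads, with 50-base single-end reads. The authors deposited estimated counts beside FPKM and TPM values in 1 table, which its headers name. The submitters' processing notes name HISAT and GRCm39. A counter, an annotation and strand use were not given in the sources used here. Overlapping or antisense genes may therefore share reads. Estimated counts were rounded. Genes were kept by filterByExpr at a minimum count of 10 (at least 99.9% of each library's counts), scaled with TMM factors (0.973 to 1.05) and tested by the quasi-likelihood method of edgeR 4.0.16 (R 4.3.3) on a model of group alone. P-values were adjusted by Benjamini-Hochberg over all tested genes (threshold 0.05), and the fit was tested on simulated data.

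Alternatives were a mouse block, RLE factors, no filter, DESeq2 1.42.0, limma 3.58.1 on log2(TPM + 1) and log2(TPM + 0.1), and leaving out each library or mouse. The numbers pair the libraries because both cheeks come from 1 animal, yet cheeks of the same mouse deviated in opposite directions (r = -0.244, -0.165 and -0.246). Libraries of a group differed by more than sampling noise in every pair (chi-square over its degrees of freedom 19.1 or more). Members and lists were chosen with earlier results of these data known. Named genes were the members, the 3 (pathways) or 2 (markers) smallest p of each list, the nearest tested neighbours, and the 3 most similar genes averaging 1 or more in log2 CPM; others were named after their values were seen. Some genes that this rule names are not reported here. RefSeq numbers matched 19253 of 19309 genes.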

Additional observations from a re-analysis of the deposited data

How the results depend on the processing

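No member changed direction under any of the 15 alternatives run, and Aqp1 and Aqp7 passed the test in none of them. With the mouse as a replicate block Aqp5 was at 1.42 (log2 fold change, adjusted p = 0.0662) and 1 member was higher; the block changed the call of no other member. DESeq2 called Aqp9, at 0.87 (adjusted p = 0.0144). With both libraries of 1 mouse left out and the block kept, Aqp9 was called without mouse 1, at 1.09 (adjusted p = 0.00157); Aqp5 was not called without mouse 2, at 1.19 (adjusted p = 0.206), where 1 member was higher. Without mouse 3 the calls of Aqp3 at 1.66, Aqp4 at -1.29 and Aqp5 at 1.31 were lost (adjusted p = 0.219, 0.225 and 0.383), so 0 members were higher and 0 lower. There edgeR called 0 of 15164 genes, with 1889 at an unadjusted p under 0.05, among them 2 members higher and 1 lower. With 1 library left out, log2 fold changes ran from 1.30 to 1.97 for Aqp3, 1.26 to 1.74 for Aqp5 and 0.56 to 1.10 for Aqp9. The number of members higher then ran from 0 (without AEW replicate 2 or 3 or vehicle replicate 1 or 3, with 3 at an unadjusted p under 0.05 in each) to 3 (without AEW replicate 1), and 1 was lower in all 6. In the fits with 0 members higher, 3072 to 4262 genes of the table were under 0.05 unadjusted, in either direction. Over the whole table the higher calls ran from 23 (without vehicle replicate 3) to 1197 (without AEW replicate 1) and the lower ones from 117 to 1041. The main fit had 733 and 1027. Without AEW replicate 3, where Aqp3 and Aqp5 were lost, there were 346 and 654. Without vehicle replicate 2, where Aqp5 alone was lost, there were 376 and 807. Without mouse 2 and with the block there were 112 and 279, and Aqp3 was still called. Why calls of the members were lost was not tested. List counts moved as well: muscle markers lower from 2 to 8 and dystrophin complex genes lower from 2 to 9 with 1 library left out, endothelial markers lower from 0 to 7, adipocyte markers lower from 0 to 6, glycerol genes lower from 0 to 6, neutrophil and sebaceous markers higher from 0 to 4 each, gland markers higher from 0 to 2 and basal markers higher from 0 to 1. Macrophage markers higher were 8 without mouse 1 and with the block, and 0 under the other 14 alternatives. The fit without mouse 1, which also called Aqp9, had 1922 of 15163 genes higher and 1588 lower. With 3 libraries a group, Aqp1 and Aqp7 could differ within the intervals given. The 5 untested aquaporins had too few counts for a comparison.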
